A study of Homo sapiens with 6 samples.

Results

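The proteasome genes were taken as all genes on the array whose RefSeq symbol begins with PSMA, PSMB, PSMC, PSMD, PSME, PSMF or PSMG and a digit, with pseudogenes left out. This gave 54 of the 21743 genes that the probes named. Of the 54 genes, 48 encode proteasome subunits, activators, an inhibitor or assembly chaperones. The other 6 share only the letters of the symbol, namely PSMC3IP, PSME3IP1, PSMD6-AS2, PSMG3-AS1, PSMD7-DT and PSMA3-AS1. A probe was tested if both arrays of any 1 of the groups showed it well above background, which kept 50 of the 54 genes and 11974 genes in all. PSMA8, an alpha subunit known from testis, PSMB11, the beta subunit of the thymus, PSMD7-DT and PSMA3-AS1 had no such probe.

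MDA-MB-231 is an established human breast cancer cell line of the triple negative, mesenchymal-like kind. The cells received a precursor of hsa-miR-205-5p, a precursor of hsa-miR-214-3p or a scrambled precursor as negative control. Each of these groups had 2 arrays, and RNA was taken 72 h after transfection. The question addressed here was how forced expression of either miRNA changed the transcripts of the proteasome, subcomplex by subcomplex. All 3 groups went through reverse transfection, so the scrambled control shares that handling, but no group of untransfected cells was analysed here. The level of either miRNA was not measured by these mRNA arrays. Nothing in the labels says that the 2 replicates of a group came from separate cultures, so p-values measure the spread between arrays, which may be technical, and 2 arrays per group limit the precision. In a bulk extract, fewer cells with a transcript and less of it per cell cannot be told apart.

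The miRNAs that were introduced are 22 bases long and have different seeds. Their mature sequences are shown because the introduced RNA is what was varied between the groups, with the seed (bases 2 to 8) in capitals. Both are from RefSeq (GRCh38.p14), and both genes lie on chromosome 1.
hsa-miR-205-5p: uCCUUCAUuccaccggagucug
hsa-miR-214-3p: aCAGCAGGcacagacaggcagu

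The proteasome degrades proteins that are tagged with ubiquitin. Its 20S core is a barrel of alpha and beta rings whose beta subunits hold the protease sites, and the 19S cap, made of a base and a lid, recognises, unfolds and feeds in the substrate. In the response to interferon gamma, inducible beta subunits replace the constitutive catalytic ones and form the immunoproteasome, which shapes the peptides shown on MHC class I.

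Between 20813 and 24759 of the 58717 spots per array (35.4% to 42.2%) stood well above background, and saturation was seen in 0 spots. Signals are given as the normalized log2 signal, that is log2 of the processed signal after the 75th percentile of the array was subtracted, and differences as log2 fold changes with their SE from limma fitted over all 6 arrays. Adjusted p is from limma with Benjamini-Hochberg adjustment over all probes tested. The call of lower or higher required that the adjusted p was under 0.05 and that the change reached 2-fold. Of the markers checked, VIM (7.47 to 7.64) and CD44 (8.28 to 8.52) were bright on all 6 arrays, while the hormone receptors ESR1 and PGR were not well above background on any array, nor was SPARC, which had been listed as a marker of the line. CDH1 (-1.47 to 0.87) and EPCAM (0.35 to 3.21), which are low in such cells, were nevertheless above background on all 6 arrays. Of the leukocyte and fibroblast markers reported here, CD3E, COL1A1 and DCN were not above background on any array, and PTPRC was so on 2 arrays.

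With hsa-miR-205-5p, transcripts of a subset of the proteasome genes were lower, and most of the complex was without a call. Compared with scrambled control, 9 of the 50 tested genes (18%) were called lower and 1 (2%) higher. Over all genes tested, 7.98% were called lower and 4.78% higher. The 9 genes were PSMB5, PSMB8, PSMB9, PSMC3, PSMC4, PSMC5, PSMD13, PSMG3 and PSMC3IP, and the gene called higher was PSMG1. The median log2 fold change of the 50 genes was 0.06, beside 0.08 over all genes tested. With no limit on fold change, 11 genes (22%) were lower and 5 (10%) higher, beside 11.3% and 9.81% of all genes. These extra genes were PSMA7 and PSMD8 on the lower side and PSMB1, PSMB2, PSMD7 and PSMG4 on the higher side.

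**Figure D1:**
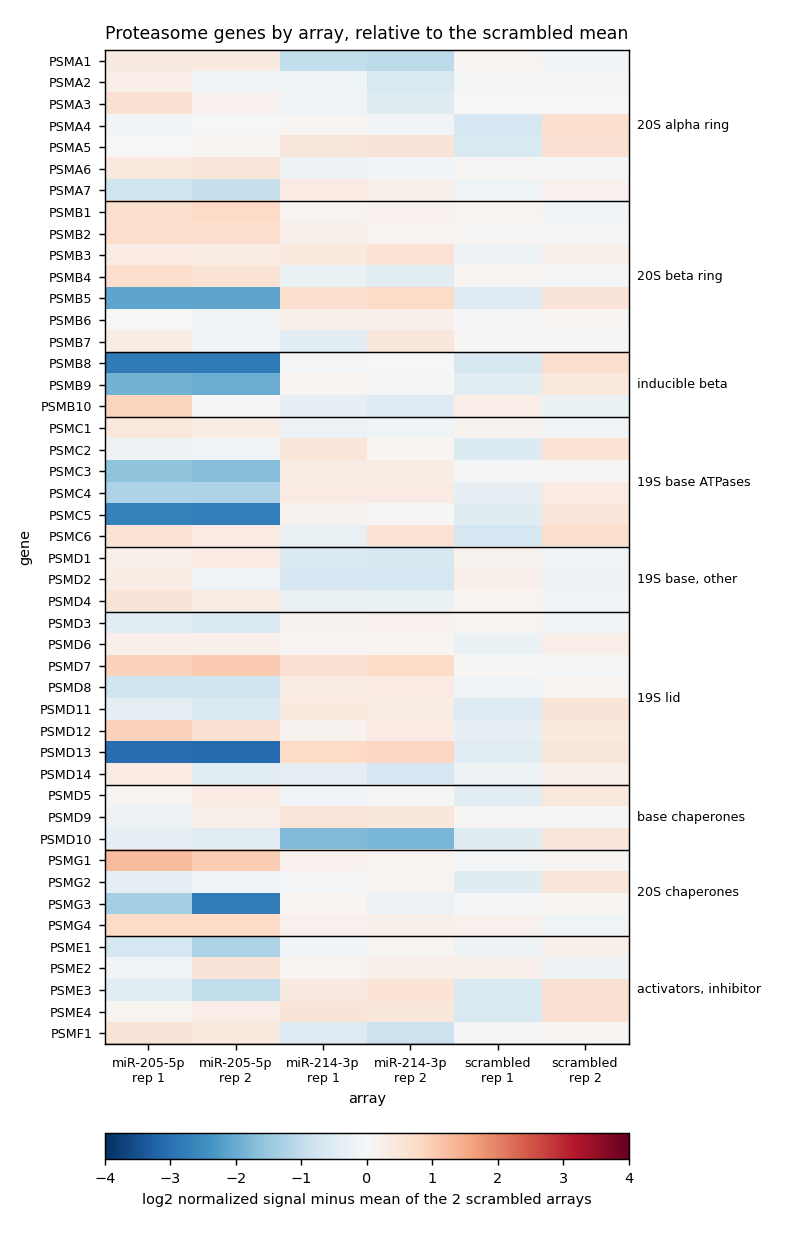
Heat map of the 46 tested proteasome genes (rows, grouped by subcomplex) on the 6 arrays (columns), with colour for the log2 normalized signal minus the mean of the 2 scrambled arrays. PSMB5, PSMB8, PSMB9, PSMC3, PSMC4, PSMC5, PSMD13 and PSMG3 are blue on both hsa-miR-205-5p arrays, and PSMD10 is blue on both hsa-miR-214-3p arrays, although it was not called.

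Of the 7 constitutive beta subunits, PSMB5 was the only one called with hsa-miR-205-5p. PSMB5 carries the chymotrypsin-like site, which is the main target of proteasome inhibitor drugs. Its signal was 4.94 and 4.93 on the hsa-miR-205-5p arrays, 6.52 and 7.57 on the scrambled arrays, and 7.71 and 7.80 on the hsa-miR-214-3p arrays. The hsa-miR-205-5p arrays lay below all others, and PSMB5 fell by 2.11 ± 0.35 on the log2 scale (4.32-fold, adjusted p = 0.018, limma, n = 2 per group). PSMB6, which carries the caspase-like site, gave 7.36 and 7.22 with hsa-miR-205-5p against 7.28 and 7.44 in scrambled control. PSMB7, which carries the trypsin-like site, gave 7.12 and 6.71 against 6.88 and 6.78. The arrays of both genes overlapped between the groups, with log2 fold changes of -0.08 ± 0.16 and 0.09 ± 0.34. The remaining beta subunits have no protease site of their own. PSMB1 (0.72 ± 0.17, adjusted p = 0.039, limma) and PSMB2 (0.69 ± 0.15, adjusted p = 0.036) passed the adjusted p but not the fold limit, but their second kept probes had log2 fold changes of the opposite sign, -0.73 for PSMB1 (adjusted p = 0.25) and -1.52 for PSMB2 (adjusted p = 0.052). PSMB3 (0.31) and PSMB4 (0.62) did not pass the adjusted p.

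Of the 3 tested inducible beta subunits, PSMB8 and PSMB9 were called lower and PSMB10 was not called, with no test between them. PSMB8, the inducible counterpart of PSMB5, gave 0.48 and 0.49 with hsa-miR-205-5p, 2.69 and 3.95 in scrambled control, and 3.27 and 3.30 with hsa-miR-214-3p. PSMB8 fell by 2.83 ± 0.41 with hsa-miR-205-5p (7.13-fold, adjusted p = 0.013, limma). PSMB9, the counterpart of PSMB6, gave 2.99 and 2.92 against 4.46 and 5.32 in scrambled control. It fell by 1.93 ± 0.30 (3.82-fold, adjusted p = 0.015, limma), with the groups well apart. PSMB10, the counterpart of PSMB7, gave 6.10 and 5.26 against 5.46 and 4.95, and these arrays overlapped (0.47 ± 0.34, adjusted p = 0.35).

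PSMB8 and PSMB9 lie on chromosome 6 beside TAP1 and TAP2, which encode the transporter that carries proteasome products into the endoplasmic reticulum. In RefSeq order, PSMB8 stands between TAP2 and TAP1, and PSMB9 follows TAP1. The neighbours were not called. TAP1 gave 6.06 and 6.14 with hsa-miR-205-5p against 5.54 and 5.27 in scrambled control, a log2 fold change of 0.70 ± 0.17 (adjusted p = 0.043, limma) that stayed under the fold limit. TAP2 gave 5.19 and 5.61 against 4.99 and 4.81 (0.50 ± 0.20, adjusted p = 0.14). IRF1, a transcription factor that drives the inducible subunits, gave 1.12 and 0.85 against 2.72 and 3.36. IRF1 was called lower, at -2.06 ± 0.26 on the log2 scale (adjusted p = 0.010, limma). NLRC5 (-0.10 ± 0.19), which acts in the same interferon response, was not called.

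The promoters of the inducible subunits and of PSMD13, the gene with the largest fall, are shown to set the sequence beside the signal. Each window runs from 250 bases before to 50 bases after a RefSeq start site (GRCh38.p14), 5′ to 3′ on the strand of the gene. Capitals mark matches, on either strand, to CCAAT, which NF-Y binds, to TGACNNNGC, the core of the antioxidant response element used by NFE2L1, to GAAANNGAA, the core of the interferon-stimulated element, or to TTCNNNGAA, the gamma-activated site. PSMB8 has another start site, whose window held no match.
PSMB8 promoter, chr6:32843998-32844297 (- strand): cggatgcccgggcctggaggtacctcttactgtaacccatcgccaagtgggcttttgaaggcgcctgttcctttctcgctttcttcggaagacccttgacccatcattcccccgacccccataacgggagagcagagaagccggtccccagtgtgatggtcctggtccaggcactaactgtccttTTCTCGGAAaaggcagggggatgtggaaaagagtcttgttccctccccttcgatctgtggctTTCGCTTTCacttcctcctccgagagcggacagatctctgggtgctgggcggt
PSMB9 promoter, chr6:32853942-32854241 (+ strand): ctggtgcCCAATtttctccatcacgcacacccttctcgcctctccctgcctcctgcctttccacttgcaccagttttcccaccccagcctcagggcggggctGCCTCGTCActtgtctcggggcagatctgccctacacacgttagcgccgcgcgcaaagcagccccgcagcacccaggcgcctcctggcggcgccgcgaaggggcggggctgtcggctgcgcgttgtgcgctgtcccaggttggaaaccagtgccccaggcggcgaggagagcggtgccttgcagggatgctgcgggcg
PSMB10 promoter, chr16:67936801-67937100 (- strand): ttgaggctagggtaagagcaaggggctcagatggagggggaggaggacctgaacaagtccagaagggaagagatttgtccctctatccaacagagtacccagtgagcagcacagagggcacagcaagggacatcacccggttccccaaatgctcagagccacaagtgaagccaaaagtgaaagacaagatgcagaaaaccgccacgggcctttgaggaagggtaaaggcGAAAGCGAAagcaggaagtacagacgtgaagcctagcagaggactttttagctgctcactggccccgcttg
PSMD13 promoter, chr11:236726-237025 (+ strand): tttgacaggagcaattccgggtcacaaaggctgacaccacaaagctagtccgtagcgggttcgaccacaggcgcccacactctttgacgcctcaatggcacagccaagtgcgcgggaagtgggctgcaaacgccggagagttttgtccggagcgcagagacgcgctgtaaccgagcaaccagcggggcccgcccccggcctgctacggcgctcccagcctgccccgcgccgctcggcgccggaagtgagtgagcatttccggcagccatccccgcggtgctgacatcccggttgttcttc

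The PSMB8 window held a match to GAAANNGAA and to TTCNNNGAA, that of PSMB9 a match to CCAAT and to TGACNNNGC, that of PSMB10 a match to GAAANNGAA, and that of PSMD13 none. RefSeq windows were at hand for 42 of the 48 proteasome genes, with 51 windows in all. PSMA7, PSMB1, PSMB6, PSMB7, PSMD4 and PSMG3 were not matched. TGACNNNGC stood in 29.4% of the 51 windows and in 13.3% of all 35116 promoter windows. The shares for CCAAT were 39.2% and 34.6%, for GAAANNGAA 15.7% and 8.11%, and for TTCNNNGAA 15.7% and 7.66%. Matches to different motifs overlapped in 0 of the 51 windows. Among the proteasome genes called lower with hsa-miR-205-5p, PSMB5, PSMB8 and PSMC5 had more than a single window each, and PSMG3 had none. Of the 10 windows of genes called lower, 3 held TGACNNNGC (30%), beside 12 of the 39 windows of the other tested genes (30.8%). The shares were 40% and 38.5% for CCAAT, 10% and 17.9% for GAAANNGAA, and 30% and 10.3% for TTCNNNGAA, that is 3 of 10 and 4 of 39 windows, with no test of the difference. A match is a match of letters only and gives no evidence of binding.

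The ATPases of the 19S base unfold substrates in a ring of 6 different subunits, and 3 of these were called lower with hsa-miR-205-5p. PSMC5 gave 0.26 and 0.22 against 2.47 and 3.47 in scrambled control, and it fell by 2.73 ± 0.34 (6.64-fold, adjusted p = 0.010, limma). PSMC3 gave 4.65 and 4.55 against 6.24 and 6.30, and it fell by 1.67 ± 0.15 (3.18-fold, adjusted p = 0.0080). PSMC4 gave 3.47 and 3.47 against 4.37 and 5.05, and it fell by 1.24 ± 0.25 (2.36-fold, adjusted p = 0.029). In all 3 genes both hsa-miR-205-5p arrays lay below both scrambled arrays. Such groups without overlap, in either direction, were common, with 31 of the 50 genes and 7812 of all 11974 genes tested. The other ATPases were not called, with log2 fold changes of 0.37 ± 0.17 for PSMC1, -0.17 ± 0.38 for PSMC2 and 0.44 ± 0.52 for PSMC6. The scrambled arrays of PSMC2 (4.26 and 5.36) and PSMC6 (3.48 and 4.88) were far from each other, and both hsa-miR-205-5p arrays lay between them.

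**Figure D2:**
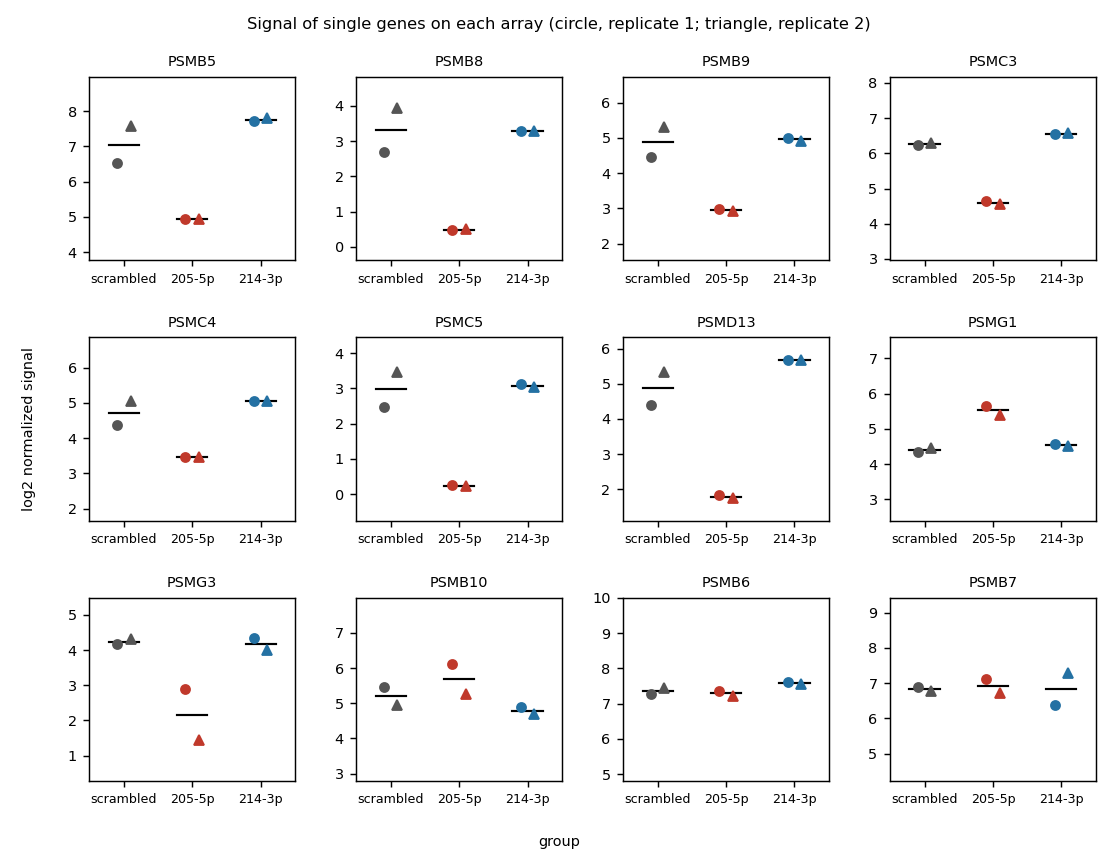
Log2 normalized signal of single genes on each array, with 1 panel per gene, circles for replicate 1, triangles for replicate 2 and a line at the group mean; all panels span the same range of log2 units. The hsa-miR-205-5p arrays lie below the others in PSMB5, PSMB8, PSMB9, PSMC3, PSMC4, PSMC5, PSMD13 and PSMG3 and above them in PSMG1, while PSMB10, PSMB6 and PSMB7, shown for comparison, were not called.

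In the 19S lid, PSMD13, a scaffold subunit, showed the largest fall of all the proteasome genes. Its signal was 1.83 and 1.75 with hsa-miR-205-5p, 4.41 and 5.33 in scrambled control, and 5.67 and 5.68 with hsa-miR-214-3p. PSMD13 fell by 3.08 ± 0.32 with hsa-miR-205-5p (8.45-fold, adjusted p = 0.0084, limma). The other 7 lid subunits were not called. PSMD8, another scaffold subunit, gave 6.03 and 6.04 against 6.72 and 6.94 (-0.80 ± 0.16, adjusted p = 0.027), and PSMD7, the partner of the lid deubiquitinase, gave 6.95 and 7.06 against 6.06 and 5.96 (0.99 ± 0.16, adjusted p = 0.016). Both passed the adjusted p without reaching 2-fold, PSMD7 at 1.99-fold. PSMD14, the deubiquitinase itself, differed by -0.05 ± 0.31 with overlapping arrays, and PSMD3, PSMD6, PSMD11 and PSMD12 lay between -0.49 and 0.76.

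The base subunits that are no ATPases, namely the scaffolds PSMD1 and PSMD2 and the ubiquitin receptor PSMD4, differed by 0.08 (PSMD2) to 0.40 (PSMD4) and none was called. The 7 tested alpha subunits, which form the gate of the core, were not called either. Their log2 fold changes ran from -0.86 ± 0.19 for PSMA7 (adjusted p = 0.034, limma) to 0.44 ± 0.15 for PSMA6 (adjusted p = 0.099), with PSMA1, PSMA2, PSMA3, PSMA4 and PSMA5 between them. The values of genes of the same ring thus spanned a range, with no test between them. The median log2 fold change was -0.71 for the 6 ATPases, -1.93 for the 3 inducible subunits, 0.06 for the alpha ring and 0.31 for the constitutive beta ring.

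**Figure D3:**
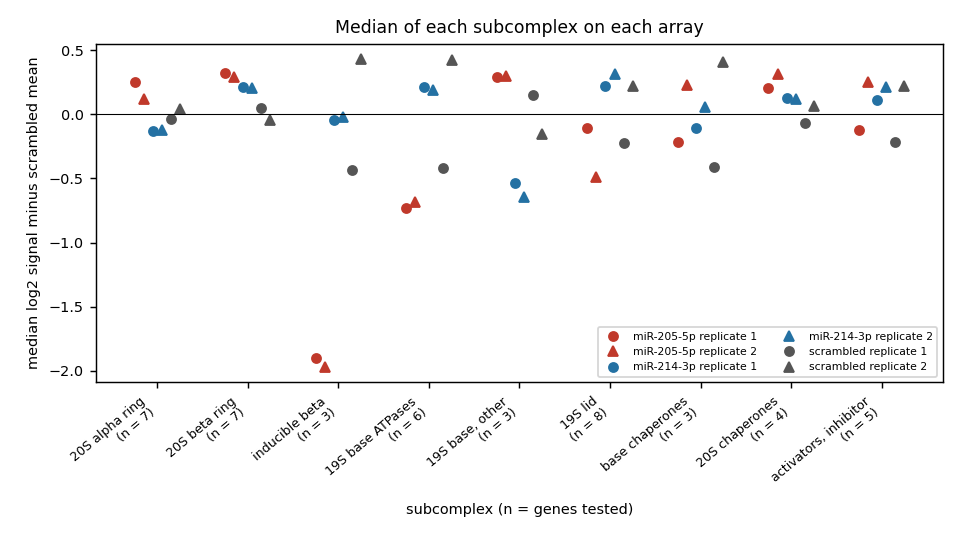
Median over the tested genes of each subcomplex of the log2 normalized signal minus the scrambled mean, on each array (circles, replicate 1; triangles, replicate 2). The inducible beta subunits stand at -1.90 and -1.97 and the ATPases at -0.73 and -0.69 on the hsa-miR-205-5p arrays, while the scrambled arrays of the ATPases already stand at -0.42 and 0.42.

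Of the chaperones that build the 20S core, members of separate pairs went opposite ways. PSMG1, which works as a pair with PSMG2 on the alpha ring, gave 5.66 and 5.40 with hsa-miR-205-5p against 4.34 and 4.47 in scrambled control. PSMG1 rose by 1.13 ± 0.17 (2.19-fold, adjusted p = 0.014, limma), while PSMG2 differed by -0.26 ± 0.34 with overlapping arrays. PSMG3, which pairs with PSMG4, gave 2.89 and 1.44 against 4.17 and 4.31. PSMG3 fell by 2.07 ± 0.47 (4.21-fold, adjusted p = 0.037), with its own 2 arrays 1.44 apart. PSMG4 passed the adjusted p but not the fold limit on the other side (0.78 ± 0.18, adjusted p = 0.036). The chaperones of the base, PSMD5 (0.22), PSMD9 (0.01) and PSMD10 (-0.39), were not called.

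The activators open the core in place of the 19S cap. PSME1, a subunit of the interferon-induced activator, gave 0.80 and 0.27 with hsa-miR-205-5p against 1.29 and 1.72 in scrambled control, a log2 fold change of -0.97 ± 0.26 that missed the threshold (adjusted p = 0.055, limma). Its partner PSME2 differed by 0.19 ± 0.27, the nuclear activator PSME3 by -0.70 ± 0.43, PSME4 by 0.18 ± 0.40 and the inhibitor PSMF1 by 0.46 ± 0.19. None of the 5 genes was called. Among the genes matched only by their letters, PSMC3IP, a partner of meiotic recombinases, was called lower, although neither of the hsa-miR-205-5p arrays showed it well above background. Its fall was at least 1.17-fold, measured against the lowest signal above background. It passed the filter only through the scrambled group, so it could only differ downward, and with normexp its log2 fold change was -0.18 without a call. Without it, 8 of the 46 tested proteasome genes (17.4%) were called lower. PSME3IP1 (-0.39), PSMD6-AS2 (0.79) and PSMG3-AS1 (-0.37) were not called.

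The scrambled arrays differed from each other in the genes that were called lower. Scrambled replicate 1 lay below replicate 2 in 9 of the 9 genes called lower with hsa-miR-205-5p, by a median of -0.88 log2 units (range -1.26 to -0.06). Among the 40 genes not called it did so in 20, with a median of -0.03. Over all genes tested, it did so in 701 of the 956 called lower (median -0.30) and in 3786 of the 10446 not called (median 0.16). The part of this difference in the result was not tested. The calls were also made without either array. Without scrambled replicate 1, 12 genes were called lower, among them 8 of the 9, with PSMG3 lost. Without scrambled replicate 2, 7 of the 9 were called, with PSMC4 and PSMG3 lost.

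More of the calls were lost without other single arrays. Without hsa-miR-205-5p replicate 2, 0 of the 9 lower calls were kept. Without hsa-miR-205-5p replicate 1, 4 of the 9 remained called lower (PSMC3, PSMC5, PSMD13 and PSMG3), and without either hsa-miR-214-3p array 4 remained (PSMB8, PSMC3, PSMC5 and PSMD13). Leaving out an hsa-miR-214-3p array changes the estimate of the spread and not the fold changes of this comparison. In a fit on only the 4 arrays compared, 4 of the 9 were called. The call of PSMG1 was lost in that fit too, without any 1 of the 4 precursor arrays, and with scaling to the median or normexp background correction.

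All of the 10 genes called in this comparison had a single kept probe, as had 27 of the 40 genes that were not called. Where a gene had more than 1 kept probe, the probes often went apart. In 8 of 13 such genes the probes had opposite signs, and in 7 they differed by more than 1 log2 unit. Between the precursors the signs were opposite in 12 of the 13 genes and the difference exceeded 1 in 10, and for hsa-miR-214-3p against scrambled control in 5 and 3. In hsa-miR-205-5p against scrambled control, the brightest probe, which stood for the gene, was the higher one in 11 of the 13. For PSMB2 the brightest probe gave 0.69 ± 0.15 and the other -1.52 ± 0.40. For PSMD2 the second probe was called lower, with 4.24 and 4.19 against 5.15 and 5.53 in scrambled control, and for PSMF1 another probe gave 2.21 and 2.15 against 3.40 and 3.28 and was called lower (-1.16 ± 0.16, adjusted p = 0.013, limma). Another probe of PSMG3-AS1 was below background on both hsa-miR-205-5p arrays and lower by at least 2.48-fold. Of 64 kept probes of the 50 tested genes, 12 were called lower and 1 higher, beside 8.05% and 4.14% of all 18464 kept probes. The 12 include a probe of PSMC3IP and a probe of PSMG3-AS1, which only share the letters of the symbol. Neither of these probes was well above background on the hsa-miR-205-5p arrays. The probes that gave the lower fold change had scrambled replicate 1 below replicate 2 in 10 of 13 genes (median -1.10), and those that gave the higher one in 6 of 13 (median 0.12). What separates the probes of a gene, such as the transcript end or isoform they detect, was not tested.

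**Figure D4:**
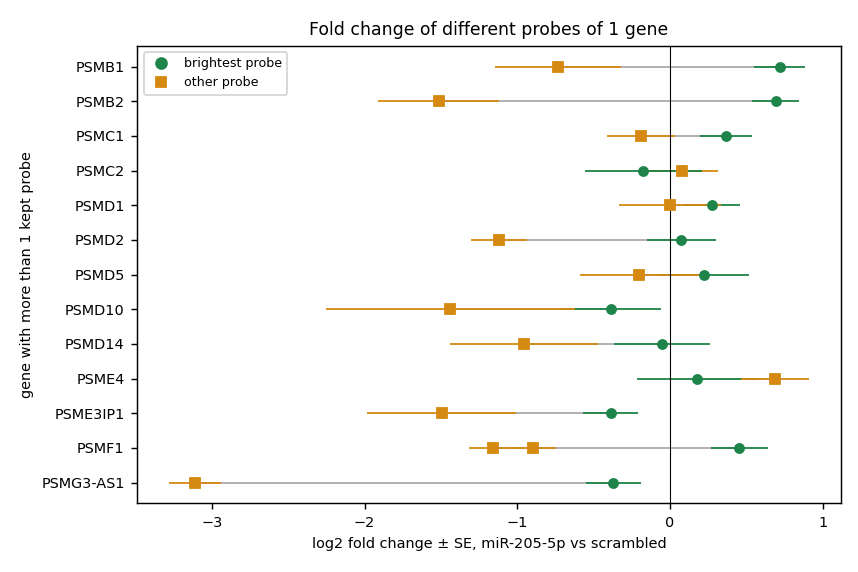
Log2 fold change ± SE between hsa-miR-205-5p and scrambled control for each kept probe of the 13 genes that had more than 1 (circle, brightest probe; square, other probes; line, span within a gene). The brightest probe lies to the right of the other probes in 11 of the 13 genes, and PSMB1, PSMB2 and PSMF1 have probes on both sides of 0.

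In hsa-miR-214-3p against scrambled control, calls were few among the proteasome genes as among all genes. Here 1 of the 50 genes (2%) was called lower and 0 higher, beside 2.03% and 1.09% of all genes tested. Without scrambled replicate 2, which leaves a single scrambled array, PSMD10 was called lower too, and PSMA5, PSMB5, PSMD13 and PSME4 higher. No share over all genes is at hand for that fit. With no limit on fold change, the fit of all 6 arrays again gave 1 lower and 0 higher, beside 2.09% and 1.21%. At an unadjusted p under 0.05 with limma, 6 genes were lower and 2 higher, beside 13.4% and 10.8% of all genes. The median log2 fold change was 0.08, beside -0.01 over all genes. The gene called was PSMA1, an alpha ring subunit, with 5.60 and 5.53 against 6.69 and 6.47 in scrambled control. PSMA1 fell by 1.01 ± 0.16 (2.02-fold, adjusted p = 0.045, limma). The call was lost under quantile normalization, in the authors' table of log2 values, in the fit of 4 arrays, with no filter on dim probes, with the replicate block, in the methods' t-test after Benjamini-Hochberg adjustment, and when any 1 array other than scrambled replicate 2 was left out. Over all these settings the log2 fold change of PSMA1 stayed between -1.20 and -0.90. The adjusted p also depends on the estimate of the spread, and what removed the call was not tested.

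PSMD10, also known as gankyrin, a chaperone of the base with a role in liver cancer, had a larger difference that missed the threshold. It gave 1.23 and 1.16 with hsa-miR-214-3p against 2.50 and 3.47 in scrambled control, a log2 fold change of -1.79 ± 0.33 (adjusted p = 0.057, limma). The scrambled arrays were 0.96 apart and both lay above the hsa-miR-214-3p arrays. Its second probe was above background on 1 of 2 hsa-miR-214-3p arrays and was not called. The base scaffolds PSMD1 (-0.59) and PSMD2 (-0.69) and the receptor PSMD4 (-0.29) all lay below 0 without a call. At the other end were PSMD13 (0.81 ± 0.32, adjusted p = 0.21), PSMB5 (0.71 ± 0.35, adjusted p = 0.30) and PSMD7 (0.67 ± 0.16, adjusted p = 0.087). The inducible subunits PSMB8 (-0.03), PSMB9 (0.07) and PSMB10 (-0.42) were not called, nor were the activators and the inhibitor, which ran from -0.67 for PSMF1 to 0.49 for PSME4. The constitutive beta ring ran from -0.35 for PSMB4 to the 0.71 of PSMB5. The range was from -0.20 for PSMC1 to 0.34 for PSMC4 among the ATPases, and from -0.07 for PSMG3 to 0.19 for PSMG4 among the 20S chaperones. The highest alpha subunit was PSMA5 (0.47), the lowest lid subunit PSMD14 (-0.53), and the highest chaperone of the base PSMD9 (0.47). Of the genes matched by letters, PSMG3-AS1 was the lowest (-0.81, adjusted p = 0.081, limma) and PSMD6-AS2 the highest (0.07).

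Both precursors were compared with the same scrambled arrays, so the precursor arrays were also set against each other. In hsa-miR-205-5p against hsa-miR-214-3p, 11 of the 50 genes (22%) were called lower and 3 (6%) higher, beside 11.3% and 9.18% of all genes tested. With no limit on fold change, 13 (26%) were lower and 10 (20%) higher, beside 16% and 17.9%. The median was 0.06, beside 0.12 over all genes. The 11 genes included PSMB5 (-2.82 ± 0.35, adjusted p = 0.0060, limma), PSMB8 (-2.80 ± 0.41, adjusted p = 0.0085) and PSMB9 (-2.00 ± 0.30, adjusted p = 0.0092). PSMD13 had the largest difference, with -3.89 ± 0.32 (14.8-fold, adjusted p = 0.0038). The ATPases PSMC3 (-1.96), PSMC4 (-1.58) and PSMC5 (-2.83) and the chaperone PSMG3 (-2.00) were lower as well. PSMC3IP counts among the 11, but it was detected above background in 0 of 2 arrays with hsa-miR-205-5p and in 1 of 2 with hsa-miR-214-3p, so no fold is given, and it was not called with normexp.

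PSMA7 and PSMD8 were called here but not against scrambled control. PSMA7 gave 5.84 and 5.70 with hsa-miR-205-5p against 6.95 and 6.83 in hsa-miR-214-3p cells (-1.12 ± 0.19, adjusted p = 0.012, limma). PSMD8 gave 6.03 and 6.04 against 7.13 and 7.16 (-1.11 ± 0.16, adjusted p = 0.0083). In both genes the scrambled arrays lay between the precursor groups. The genes called higher were PSMA1 (1.37 ± 0.16, adjusted p = 0.0054), PSMD10 (1.40 ± 0.33, adjusted p = 0.028) and PSMF1 (1.13 ± 0.19, adjusted p = 0.012). The second kept probe of PSMD10 was above background on 1 of 2 arrays in each precursor group, so no difference is given for it. The PSMD10 call was lost with normexp, scaling to the median, no filter and the mean of probes, which averages that probe in. The brightest PSMF1 probe gave 4.31 and 4.20 against 3.30 and 2.95, but its other kept probes had log2 fold changes of -0.91 and -0.77. Scaled to the median, 12 genes were called lower and 1 higher in place of 11 and 3. The uncalled extremes of the subcomplexes were PSMB4 (0.97), PSMB10 (0.89), PSMC1 (0.57), PSMD1 (0.86), PSMD4 (0.69), PSMD12 (0.53), PSMD9 (-0.46), PSMG1 (0.99), PSME3 (-1.15) and PSMD6-AS2 (0.73). Without hsa-miR-214-3p replicate 1, 4 of the 11 lower calls were kept (PSMB5, PSMC3, PSMC5 and PSMD13), and without replicate 2, 2 were kept (PSMC3 and PSMD13). The higher calls of PSMA1, PSMD10 and PSMF1 were lost without either of these arrays (0 called in each case).

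**Figure D5:**
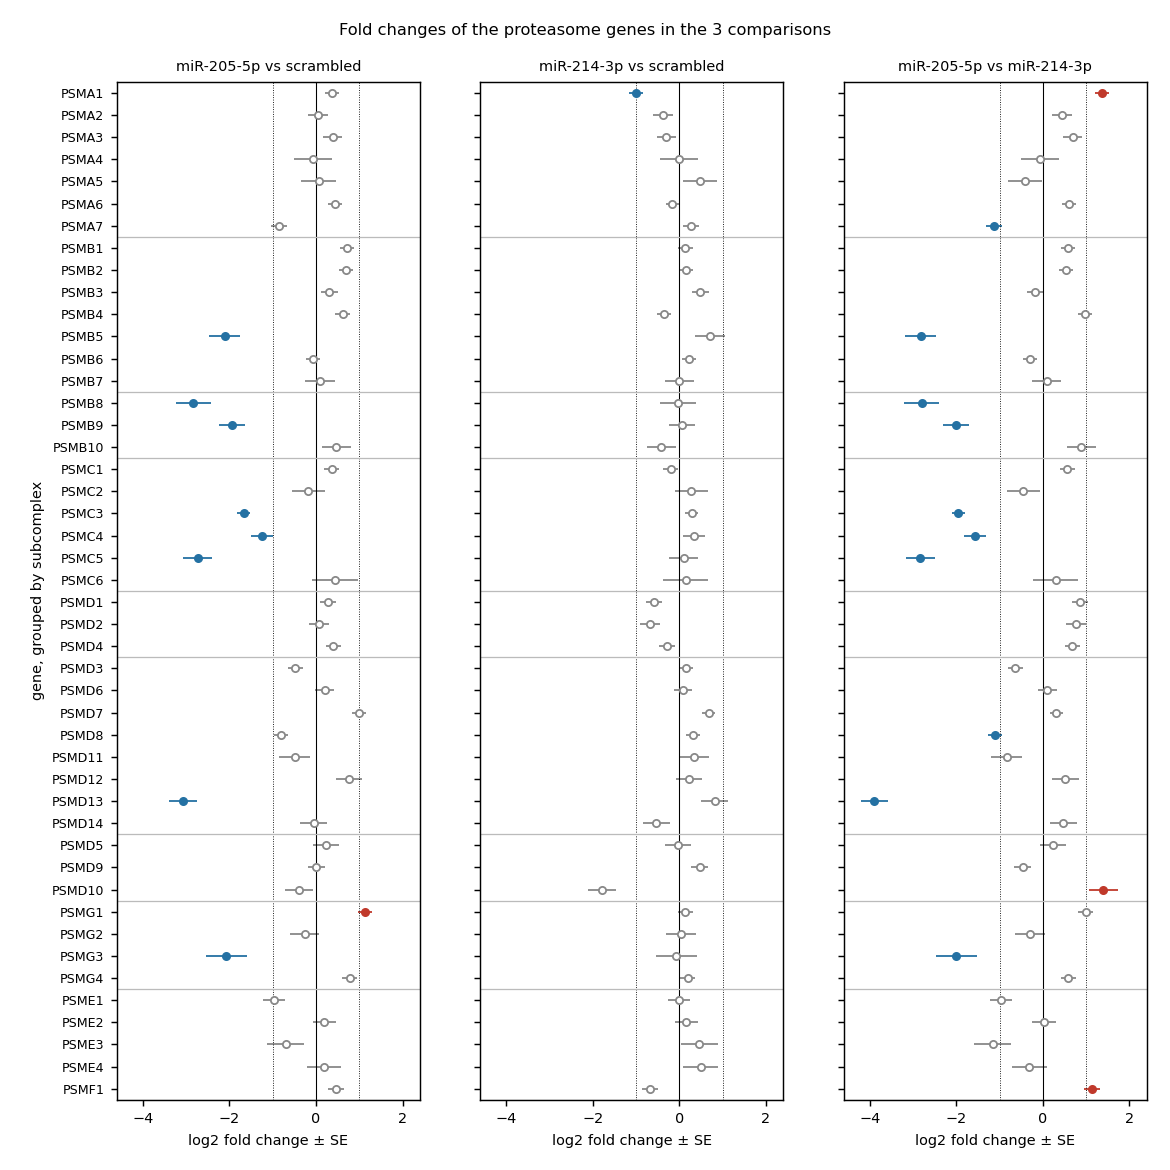
Log2 fold change ± SE (limma, 2 arrays per group) of the 46 tested proteasome genes in the 3 comparisons, with filled blue points for genes called lower, filled red points for genes called higher, open points for genes not called and dotted lines at 2-fold. The panel of hsa-miR-214-3p against scrambled control holds a single filled point, PSMA1, while PSMB5, PSMB8, PSMB9, PSMC3, PSMC4, PSMC5, PSMD13 and PSMG3 are filled in both panels with hsa-miR-205-5p.

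Genes that act with the proteasome but have other names were read from lists. Of 14 partner genes, 10 were tested and 0 were called against scrambled control with either precursor. The lid subunit SEM1 gave 6.90 and 7.01 with hsa-miR-205-5p, 4.14 and 4.15 with hsa-miR-214-3p, and 6.51 and 5.38 in scrambled control. It differed from scrambled control by 1.01 ± 0.37 in hsa-miR-205-5p cells (adjusted p = 0.11, limma) and by -1.80 ± 0.37 in hsa-miR-214-3p cells (adjusted p = 0.071). Between the precursors SEM1 was higher with hsa-miR-205-5p (2.82 ± 0.37, adjusted p = 0.0068), as were PAAF1 (1.09) and TXNL1 (1.08), which bind the 19S cap, while ZFAND2A, a stress-induced cap partner, was lower (-1.81).

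Of 8 genes that control the transcription of proteasome genes, 6 were tested and 0 were called in any of the 3 comparisons. NFE2L1, the factor that raises proteasome genes when degradation is blocked, gave 5.48 and 5.36 with hsa-miR-205-5p, 5.61 and 5.64 with hsa-miR-214-3p and 5.63 and 5.66 in scrambled control, and these differences did not pass the test. Of the ubiquitin genes reported here, UBB was called lower in hsa-miR-205-5p cells, with 5.68 and 5.69 against 6.83 and 7.06 (-1.26 ± 0.16, adjusted p = 0.011, limma), and RPS27A (0.17) was not. Of 8 shuttle and segregase genes, 7 were tested and 0 were called against scrambled control. UBQLN1 (1.05) and UBQLN2 (1.02), which deliver ubiquitin-tagged proteins, were higher with hsa-miR-205-5p than with hsa-miR-214-3p. In the list of inducers and neighbours of the inducible subunits, NLRC5 was called lower in hsa-miR-214-3p cells (-1.23 and -0.93 against 0.17 and 0.21 in scrambled control, adjusted p = 0.040, limma), and between the precursors IRF1 was lower (-2.60) and NLRC5 higher (1.17) with hsa-miR-205-5p.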

How the data were processed

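RNA of MDA-MB-231 cells was hybridized to 6 one-color Agilent SurePrint G3 arrays, 2 per group by the labels, all on 1 slide. The authors extracted spots with Feature Extraction 11.0 (submitters' processing notes) and deposited the processed signal, a background-subtracted, detrended intensity on a linear scale. A deposited table from the authors gives log2 values with the same quantiles on every array, and the methods name GeneSpring as the normalization software without naming the normalization.

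Control and outlier spots were left out, spots of a probe were averaged, log2 was taken, and the 75th percentile of each array (35.1 to 58.0 before log2) was subtracted. Of 50599 probes, 18464 were kept because both arrays of any 1 group showed them well above background. Probes were named by accession through RefSeq (GRCh38.p14), used for names, gene order and promoters, and 83.3% of kept probes matched. A gene took its brightest kept probe. limma 3.58.1 in R 4.3.3 with the data.table package (version 1.17.8) was fitted to all 6 arrays, and plots used matplotlib 3.10.9. The steps were tested on simulated data.

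The proteasome genes, subcomplexes, partner lists and motifs were chosen with earlier results of these data known. The text names each gene called, the extremes of each subcomplex, the catalytic and inducible beta subunits, and the activators and inhibitor. Alternatives were normexp (offset 50, on median spot signals), quantile, median and other percentile scaling, the authors' table, other filters, 4 arrays, a replicate block, a trended robust spread, each array left out, unadjusted p, the methods' t-test, no fold limit and other probe rules. A slide block was not run, since there was 1 slide. A few listed genes are not reported here.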

Additional observations from a re-analysis of the deposited data

How the results depend on the processing

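Leaving out 1 array at a time (its partner then taken to vary as the other groups do), the genes called numbered 0 to 12 lower and 0 to 3 higher for hsa-miR-205-5p against scrambled control, 0 to 2 and 0 to 4 for hsa-miR-214-3p (the highest of both without scrambled replicate 2), and 2 to 12 and 0 to 3 between the precursors. The medians ran from -0.21 (without scrambled replicate 1) to 0.13, from -0.15 to 0.21 and from -0.04 to 0.09. For hsa-miR-205-5p against scrambled control, where 9 genes were lower and 1 higher, 3 and 0 were called with no filter on dim probes, 4 and 0 in the fit of only the 4 arrays, 5 lower by the methods' t-test unadjusted and 0 and 0 after Benjamini-Hochberg (5 and 1 unadjusted with 2-fold). None was called higher with normexp or scaling to the median (0 in each), and 5 were with no limit on fold change. Scaling to the median moved the median of the 50 genes from 0.06 to -0.33 and that of all genes from 0.08 to -0.31. The single lower call of hsa-miR-214-3p became 2 with normexp, the strict filter, the trended spread or unadjusted p, and 0 under quantile normalization, the authors' table, no filter, 4 arrays, the replicate block and the t-test after Benjamini-Hochberg (2 lower at unadjusted p and 2-fold with the block). Between the precursors, no filter gave 7 lower and 1 higher, normexp, scaling to the median and the mean of a gene's probes each gave 1 higher, and no fold limit gave 10 higher. The mean of probes moved that median to -0.18. PSMC3, PSMC5 and PSMD13 kept their lower call against scrambled control in 15 of 16 settings other than left-out arrays. Some of these settings, such as unadjusted p or no limit on fold change, only loosen the rule and could not lose a call. The calls were lost in the methods' t-test after Benjamini-Hochberg adjustment, and also without hsa-miR-205-5p replicate 2.

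With the replicate block, the 9 lower and 1 higher calls of hsa-miR-205-5p were kept, as were the 11 and 3 between the precursors, while the lower call of hsa-miR-214-3p (PSMA1) was lost. The numbers did not pair the samples, since deviations of same-numbered arrays correlated at 0.109, 0.0082 and -0.051.

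Values reversed where another probe stood for the gene. With the mean of probes, hsa-miR-205-5p against hsa-miR-214-3p gave -0.18 for PSMF1 and -1.07 for PSMG3-AS1. With the probe of smallest p it gave -2.32 for PSMB2, -1.82 for PSMD14, 1.79 for PSME4 and -2.57 for PSMG3-AS1, and against scrambled control -1.12 for PSMD2 and -1.16 for PSMF1. For PSMG3-AS1 these are the measured differences and no sizes, since the other probe was below background on both hsa-miR-205-5p arrays and only at least 1.71-fold lower than with hsa-miR-214-3p. The cause was not tested.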
